A study of Mus musculus with 9 samples.

Results

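Forkhead factors are transcription factors that share a winged-helix DNA-binding domain. The 8 forkhead genes described here, Foxc1, Foxn1, Foxq1, Foxi3, Foxe1, Foxp1, Foxo1 and Foxo3, were taken from the 46517 gene rows of each library by symbol. The set was drawn up with earlier results of these data known. They are 8 of 44 forkhead genes in those rows, and all 8 passed the filter on low counts. Among the 8, Foxq1 had the highest mean level in any population and the largest difference between populations. Its level in the basal cells of the hair bulb was 54.8-fold that in the bulge stem cells and 4.78-fold that in the suprabasal bulb.

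The study sequenced bulk RNA of cells sorted from the back skin of mice aged 30 days after birth, whose follicles were in anagen VI, late in the phase of hair growth. It gave 9 libraries of 4 kinds of cell: hair follicle stem cells of the bulge (HFSC, 3 libraries), outer root sheath (ORS, 2 libraries), the basal layer of the bulb (basal HB, 2 libraries) and the layers above it (suprabasal HB, 2 libraries). All mice carried a GFP transgene and none had a deletion or a treatment that the labels name; the strain label gives Lhx2-GFP (CD1) and the extraction text K14-H2BGFP, so the line behind the GFP gate is not settled. Every library has the same sex label, "Mixed". Sorting markers named in the labels are P-cadherin, Sca-1, CD34, both integrins α6 and β1, and GFP, without the gates, the number of mice per library or whether replicates came from separate mice. A p-value therefore measures the spread between these libraries, which may be technical.

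In the skin, forkhead factors act at several levels of the follicle. FOXC1 and FOXP1 are known for keeping bulge stem cells quiescent, FOXE1 for follicle growth downstream of hedgehog signalling, and FOXN1, the factor lost in nude mice, FOXQ1, the factor mutated in satin mice, and FOXI3, the factor mutated in hairless dog breeds, for the differentiation or formation of hair. FOXO1 and FOXO3 are held in the cytoplasm when phosphorylated by AKT downstream of insulin and growth factor receptors, so their activity is not read from their RNA level.

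The third helix of the forkhead domain enters the major groove of DNA, and the stretch that encodes it is shown for 5 of the 8 genes because it is what makes them a family. Each sequence is 39 bases of the coding strand from GENCODE M21 transcripts (GRCm38, the assembly also called mm10), read 5′ to 3′, with capitals at the 20 positions where these 5 genes have the same base.
Foxc1: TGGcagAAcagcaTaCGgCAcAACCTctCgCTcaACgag
Foxn1: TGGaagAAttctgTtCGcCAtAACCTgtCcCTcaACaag
Foxq1: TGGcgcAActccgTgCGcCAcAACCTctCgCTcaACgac
Foxe1: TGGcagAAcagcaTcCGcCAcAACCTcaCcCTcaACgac
Foxo3: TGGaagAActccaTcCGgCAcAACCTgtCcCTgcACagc
Pairs of these genes shared between 27 and 34 of the 39 bases. Foxc1 and Foxe1 shared 34 bases and 11 of 13 encoded residues, whereas Foxn1 and Foxe1 shared 27 bases and 9 of 13 encoded residues. The stretch lies in a single exon of Foxc1 (chr13:31807571-31807609, plus strand), Foxq1 (chr13:31559391-31559429, plus strand) and Foxe1 (chr4:46344488-46344526, plus strand), whose transcripts have 1 exon, and in exon 7 of 9 of Foxn1 (chr11:78361580-78361618, minus strand). It runs over an exon junction in Foxo3 (exons 2 and 3 of 4).

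Total expected counts, the authors' estimated reads per gene, came to 25098237 to 29902799 for HFSC and to 45438637 to 88596741 for the other 6 libraries. The mitochondrial share of counts was 4.36% for suprabasal HB and 2.28% to 2.89% for all others. Levels below are CPM, counts scaled to a common library size with TMM factors, unless TPM, a level also divided by transcript length, is named. The labels were set against marker genes. Summed CPM of 8 bulge stem cell markers was 6217 to 7041 in HFSC and 4994 to 6253 in ORS, ranges that overlap. It was 1056 to 1379 in basal HB and 441 to 717 in suprabasal HB. In ORS, 6 of the 8 were lower than in HFSC and 1 was higher, Lhx2 (3172 against 1349 CPM). Cd34 is a sorting marker and Lhx2 names the GFP line of the strain label, so neither checks the labels independently. Summed CPM of 10 hair shaft markers was highest in suprabasal HB (2231 to 2563). The summed CPM of 6 outer root sheath keratins went against the label, with 9151 to 11520 in HFSC and 3388 to 3990 in ORS. Of the 6, 5 were lower in ORS than in HFSC, and Krt75 (124.5 against 110.1 CPM) was not called. Melanocyte markers, 8 of 8 higher in suprabasal HB than in each other population, summed to 14970 to 15280 CPM there, 883 to 1321 in basal HB, 75.9 to 327 in ORS and 88.8 to 152 in HFSC, with none at 0. Smooth muscle and pericyte markers (4 genes, none at 0) summed to 1179 to 1337 CPM in basal HB, 1168 to 1801 in HFSC, 450 to 463 in ORS and 48.5 to 71.0 in suprabasal HB. These 4 genes split between basal HB and HFSC: Myh11 (390 against 15.2 CPM) and Rgs5 (238 against 22.4) were higher in basal HB, and Acta2 (541 against 1115) and Cspg4 (88.2 against 366) lower. The 10 dermal fibroblast and papilla markers (none at 0) summed to 1614 to 2846 CPM in HFSC and 896 to 1596 in ORS. Their sums were 2007 to 2359 in basal HB and 1745 to 4031 in suprabasal HB. Against HFSC, 3 of the 10 were higher in basal HB and 1 lower. In bulk RNA, fewer cells of a type and less RNA per cell cannot be told apart, which applies to every value below. The part of these other cells in the forkhead levels was not tested.

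**Figure D1:**
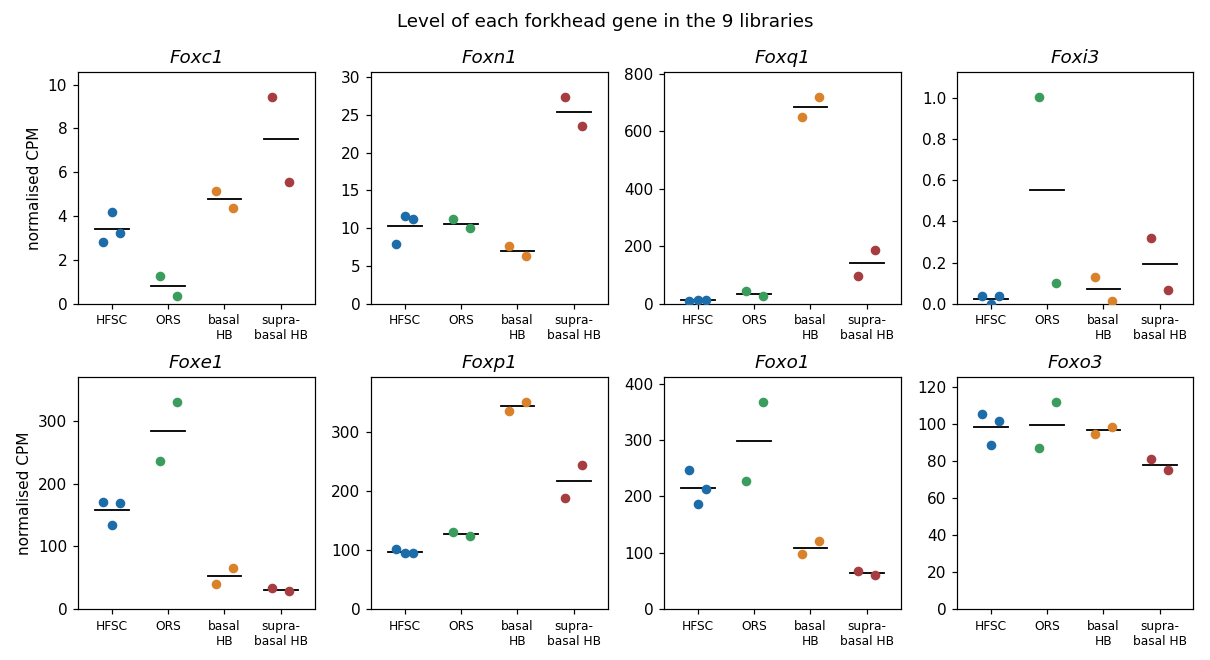
Level of each of the 8 forkhead genes in the 9 libraries (y axis, TMM-normalised CPM, a scale of its own in each panel; x axis, population), with a point for each library and a line at the population mean. Foxq1 is at 649 and 719 CPM in the basal HB libraries and at 188 or less in the other 7, while Foxo3 lies between 74.9 and 112 in all 9.

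Foxq1, a factor of the inner cells of the hair shaft (ENSMUSG00000038415, mm10 chromosome 13, 31556134 to 31560976, plus strand), was the gene with the widest range. Its levels were 10.7, 12.5 and 14.3 CPM for HFSC, 42.8 and 25.6 for ORS, 649 and 719 for basal HB, and 98.0 and 188 for suprabasal HB. No 2 populations overlapped, and their order was HFSC, ORS, suprabasal HB, basal HB, with each neighbour in that order past the test. Basal HB, at 684 ± 49.5 CPM (SD, n = 2), was 54.8-fold above HFSC at 12.5 ± 1.76 (n = 3; log2 change 5.78, SE 0.33, edgeR adjusted p = 6.28e-06) and 20.1-fold above ORS at 34.2 ± 12.2 (n = 2; adjusted p = 0.000123). Suprabasal HB, at 143 ± 63.7 CPM, was 4.78-fold below basal HB (adjusted p = 0.00142) and 4.19-fold above ORS (adjusted p = 0.00156). ORS was 2.74-fold above HFSC (adjusted p = 0.00431). A gene on the opposite strand, A530084C06Rik, overlaps Foxq1 and had 9.97 to 451.78 expected counts, against 281.03 to 48368.51 for Foxq1. The strand used in counting is not given in the sources used here, and without it reads from such a pair cannot be told apart.

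Foxn1, which drives hair keratin genes in differentiating cells of the follicle (ENSMUSG00000002057, chromosome 11, 78357577 to 78386558, minus strand), had its highest levels in the suprabasal bulb. The libraries were at 7.91, 11.6 and 11.3 CPM for HFSC, 11.2 and 10.0 for ORS, 7.68 and 6.26 for basal HB, and 27.4 and 23.5 for suprabasal HB. Both suprabasal HB libraries stood above all other libraries, and the HFSC and ORS libraries overlapped. Suprabasal HB, at 25.4 ± 2.78 CPM, was 3.65-fold above basal HB (log2 change 1.87, SE 0.21, adjusted p = 0.000445), 2.48-fold above HFSC (adjusted p = 0.000441) and 2.40-fold above ORS (adjusted p = 0.00198). Basal HB, at 6.97 ± 1.01 CPM, was 1.47-fold below HFSC (adjusted p = 0.0411), a call that was lost in 14 of 18 alternative settings, where the adjusted p reached 0.628. Basal HB against ORS missed the threshold (log2 change -0.60, adjusted p = 0.0562). Between ORS and HFSC the log2 change was 0.05, with a 95% interval from -0.38 to 0.48. Summed melanocyte markers and summed hair shaft markers were both highest in the same 2 libraries as Foxn1, at the sums given above.

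Foxi3, a factor of the placodes from which hair and teeth form (ENSMUSG00000055874, chromosome 6, 70956531 to 70961066, plus strand), was close to the limit of detection. It had 1, 0 and 1 counts for HFSC, 68 and 9 for ORS, 9 and 1 for basal HB, and 17 and 3 for suprabasal HB. These come to at most 1.004 CPM, and of the 6 pairs of populations HFSC with ORS and HFSC with suprabasal HB did not overlap. ORS was called above HFSC (log2 change 4.28, SE 1.47, adjusted p = 0.0438), and the ratio of the summed counts, scaled for library size, was 19.0 with a 95% counting interval from 5.09 to 160. The call rested on ORS replicate 1: without it the adjusted p was 0.372 and the log2 change 1.88. It was also lost without HFSC replicate 1, 2 or 3 (adjusted p = 0.0995, 0.104 and 0.0987) and on the log2(TPM + 1) scale (adjusted p = 0.0714). No other pair of populations passed for Foxi3.

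Foxc1, which with NFATC1 and BMP signalling restrains bulge stem cells (ENSMUSG00000050295, chromosome 13, 31806633 to 31812476, plus strand), was lowest in ORS. Its levels were 2.83, 4.16 and 3.24 CPM for HFSC, 1.27 and 0.358 for ORS, 5.15 and 4.37 for basal HB, and 9.44 and 5.57 for suprabasal HB. ORS lay below every other library, and the remaining populations did not overlap either. ORS, at 0.814 ± 0.645 CPM, was 4.24-fold below HFSC at 3.41 ± 0.685 (log2 change -2.08, SE 0.50, adjusted p = 0.00992), 5.93-fold below basal HB (adjusted p = 0.00594) and 9.36-fold below suprabasal HB (adjusted p = 0.00203). The size depends on which ORS library is used. Without ORS replicate 1 the gap to HFSC was 9.45-fold, that to basal HB 13.2-fold and that to suprabasal HB 20.9-fold. Without ORS replicate 2 these gaps were smaller, at 2.67-fold, 3.75-fold and 5.91-fold. Each was still past the test. On the log2(TPM + 1) scale, which understates low genes, the ORS to HFSC change was -0.72 (adjusted p = 0.0378). Basal HB against HFSC was not called (log2 change 0.49, 95% interval -0.526 to 1.496), and between suprabasal HB and basal HB the change of 0.66 (-0.43 to 1.75) was not called. Suprabasal HB against HFSC, whose libraries do not overlap, missed the threshold (log2 change 1.14, adjusted p = 0.0569) but was called in 7 of 18 alternatives, with adjusted p from 0.00741 to 0.319 over the 18.

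Foxp1, which acts on Fgf18 in the stem cells (ENSMUSG00000030067, chromosome 6, 98925338 to 99522721, minus strand), followed the same order of populations as Foxq1. Its levels were 102, 95.3 and 94.8 CPM for HFSC, 130 and 123 for ORS, 336 and 351 for basal HB, and 188 and 244 for suprabasal HB. No 2 populations overlapped. Basal HB, at 343 ± 10.8 CPM, was 3.52-fold above HFSC at 97.5 ± 4.23 (log2 change 1.82, SE 0.12, adjusted p = 9.4e-06) and 2.71-fold above ORS at 127 ± 5.01 (adjusted p = 0.00016). It was also 1.59-fold above suprabasal HB (adjusted p = 0.00539), which in turn was 1.70-fold above ORS (adjusted p = 0.00204) and 2.22-fold above HFSC (adjusted p = 5.01e-05). ORS and HFSC, the closest neighbours, differed by 1.30-fold (adjusted p = 0.0271), a call lost without ORS replicate 1 (adjusted p = 0.115) or ORS replicate 2 (0.0626). With the replicate number as a block it was lost too (0.0871).

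Foxe1 (ENSMUSG00000070990, chromosome 4, 46343609 to 46346412, plus strand), known for thyroid and hair follicle development, was highest in ORS. Its levels were 171, 133 and 169.5 CPM for HFSC, 236 and 330 for ORS, 39.7 and 65.0 for basal HB, and 33.2 and 28.2 for suprabasal HB. No 2 populations overlapped, and both bulb populations lay below both upper ones. ORS, at 283 ± 66.3 CPM, was 5.41-fold above basal HB at 52.3 ± 17.9 (log2 change of basal HB against ORS -2.44, SE 0.26, adjusted p = 0.000289) and 9.23-fold above suprabasal HB at 30.7 ± 3.54 (adjusted p = 5.16e-05). HFSC, at 158 ± 21.3 CPM, was 3.02-fold above basal HB (adjusted p = 0.000676) and 5.14-fold above suprabasal HB (adjusted p = 6.9e-05). The 1.80-fold step from HFSC up to ORS passed (adjusted p = 0.015) but not without ORS replicate 2 (adjusted p = 0.109). Suprabasal HB was 1.71-fold below basal HB (adjusted p = 0.0488), which did not hold in 7 of 18 alternatives. These include leaving out basal HB replicate 2 (adjusted p = 0.325), suprabasal HB replicate 1 (0.0867) or 2 (0.183), or HFSC replicate 1 (0.0554) or 3 (0.0589), and the replicate block (0.097). The antisense gene Gm12446 overlaps Foxe1, with 126.74 to 1873.4 expected counts against 1259.26 to 29546.6.

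Foxo1 and Foxo3 encode close relatives of the FOXO group, and their RNA levels differed in pattern. Foxo1 (ENSMUSG00000044167, chromosome 3, 52268336 to 52353221, plus strand) was at 246, 185.5 and 213 CPM for HFSC, 228 and 367 for ORS, 97.2 and 121 for basal HB, and 68.0 and 60.8 for suprabasal HB. As for Foxe1, both bulb populations lay below HFSC and ORS, while HFSC and ORS overlapped. Basal HB, at 109 ± 16.8 CPM, was 1.97-fold below HFSC at 215 ± 30.3 (log2 change -0.98, SE 0.21, adjusted p = 0.00483) and 2.73-fold below ORS at 298 ± 98.6 (adjusted p = 0.00172). Suprabasal HB, at 64.4 ± 5.07 CPM, was 3.34-fold below HFSC (adjusted p = 0.000208) and 4.62-fold below ORS (adjusted p = 0.000179). The difference of basal HB from HFSC missed the threshold without basal HB replicate 1 (adjusted p = 0.0542) and on the log2(TPM + 1) scale (0.0705). Between the bulb layers Foxo1 differed by 1.69-fold (adjusted p = 0.0357). That call did not survive the loss of basal HB replicate 1 or 2 (adjusted p = 0.0667 and 0.185), of suprabasal HB replicate 1 or 2 (0.0791 and 0.138) or the replicate block (0.0794). ORS against HFSC gave a log2 change of 0.47 (95% interval 0.01 to 0.93, adjusted p = 0.0941), and 5 of 18 alternatives called it (adjusted p from 0.0114 to 0.753 over the 18). The antisense gene Gm20402, at 0 to 542.38 expected counts, overlaps the start of Foxo1.

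Foxo3 (ENSMUSG00000048756, chromosome 10, 42181841 to 42276755, minus strand) had the narrowest range of the 8 genes. It was at 105, 88.3 and 102 CPM for HFSC, 87.0 and 112 for ORS, 94.5 and 98.3 for basal HB, and 80.7 and 74.9 for suprabasal HB. HFSC, ORS and basal HB overlapped, and the suprabasal HB libraries were the lowest. The log2 change was 0.01 for ORS against HFSC (95% interval -0.26 to 0.29) and -0.03 for basal HB against HFSC (-0.31 to 0.25), the latter of either sign depending on the scaling. Suprabasal HB, at 77.8 ± 4.11 CPM against 98.4 ± 8.86 in HFSC, was called 1.27-fold lower (adjusted p = 0.0448), and 12 of 18 alternatives lost that call. Among them are leaving out any 1 of the HFSC, basal HB or suprabasal HB libraries (adjusted p from 0.0598 to 0.379) and the replicate block (0.133).

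**Figure D2:**
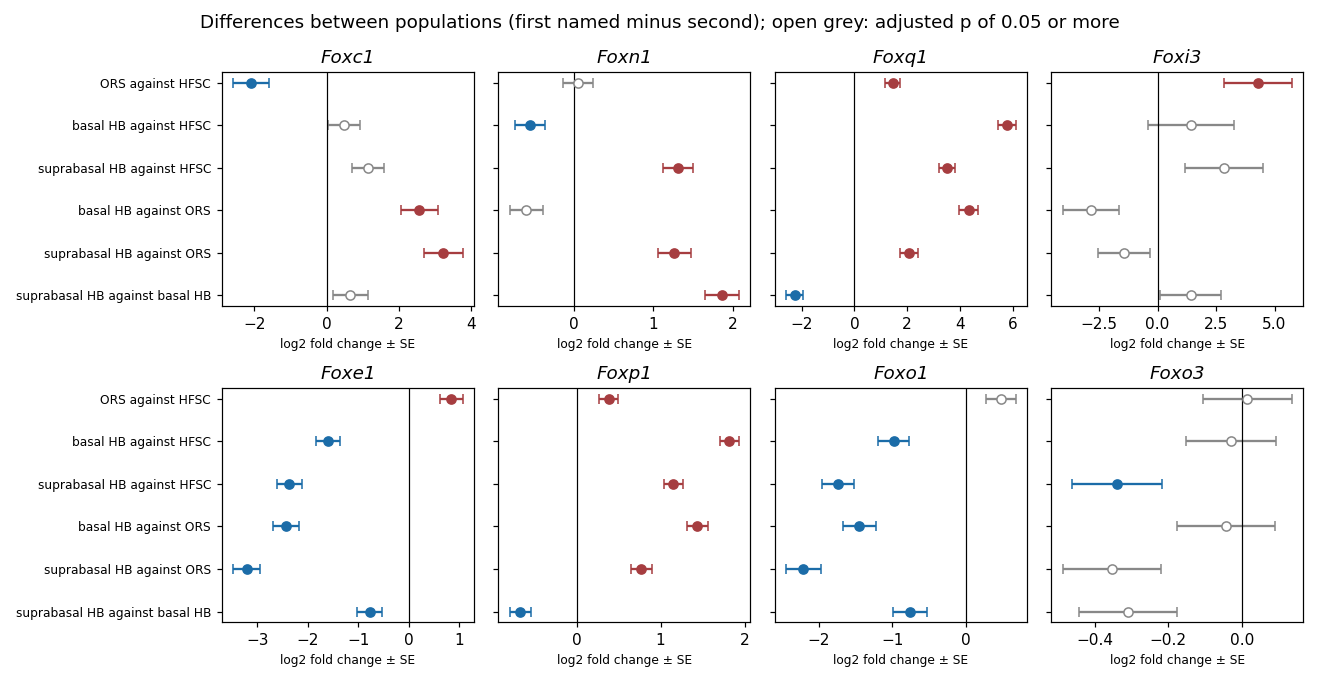
Log2 fold change (x axis) of the 8 forkhead genes in the 6 comparisons of populations (rows, first named minus second), with bars of 1 SE from edgeR. Filled points have an adjusted p under 0.05, red where the first population is higher and blue where it is lower; Foxq1 in basal HB against HFSC, at 5.78, lies farthest from 0.

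Counted by comparison, 5 or 6 of the 8 genes were called each time; these counts are given beside the share of all genes called, and the difference was not tested. In ORS against HFSC, 4 were higher and 1 lower, where 41.9% of the 20491 genes tested were called (18.1% higher, 23.8% lower). Basal HB against HFSC had 2 higher and 3 lower, with 48.9% of all genes called (22.8% and 26.1%). Suprabasal HB against HFSC had 3 higher and 3 lower, with 51.5% of all genes called (25.2% and 26.3%). Against ORS, basal HB had 3 higher and 2 lower (all genes 30.5%, of which 15.8% higher and 14.7% lower), and suprabasal HB 4 higher and 2 lower (29.4%, of which 14.3% and 15.1%). Suprabasal HB against basal HB had 1 higher and 4 lower, with 27.9% of all genes called (13.1% and 14.8%). Some of these counts moved by over 1.5 times when 1 library was left out: the 4 higher in ORS fell to 2 without ORS replicate 2, the 3 lower in basal HB against HFSC to 1 without basal HB replicate 1 or on the log2 TPM scales, and the 4 lower in suprabasal HB against basal HB to 2 without basal HB replicate 2 or either suprabasal HB replicate. With the replicate block the last count was also 2. No overlap between the libraries of both populations was seen for 5, 6, 8, 6, 7 and 7 of the 8 genes in the 6 comparisons in this order, against 61.8%, 69.7%, 67.3%, 67.4%, 65.1% and 68.5% of all genes. Comparisons with HFSC share the same 3 HFSC libraries, so the counts are not independent of each other. The median log2 change of the 8 genes was 0.43, 0.23, 1.15, -0.32, 0.21 and -0.49, and that of all genes tested lay between -0.05 and 0.02.

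Set side by side per transcript length, the leading forkhead gene changed from population to population. Foxe1 had the highest mean TPM of all 44 forkhead genes in HFSC (82.7 ± 15.03 TPM) and in ORS (187 ± 46.7). Foxq1 had it in basal HB (496 ± 0.948) and Foxp1 in suprabasal HB (99.2 ± 6.26, with Foxq1 second at 84.5 ± 30.3). The suprabasal HB libraries differed in their leader. Foxp1 was at 94.8 and Foxq1 at 63.1 TPM in replicate 1, against 103.6 and 106 in replicate 2. Summed over the 44 genes, forkhead RNA came to 344 to 463 TPM for HFSC, 628 and 734 for ORS, 1040 and 1018 for basal HB, and 473 and 458 for suprabasal HB. Foxq1 made up 47.6% and 48.8% of that sum for basal HB, 13.3% and 23.1% for suprabasal HB, 4.7% and 2.5% for ORS, and 1.3% to 1.9% for HFSC. With Foxq1 left out of the sum, the ORS libraries were the highest, at 598 and 716 TPM against 545 and 521.5 for basal HB.

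**Figure D3:**
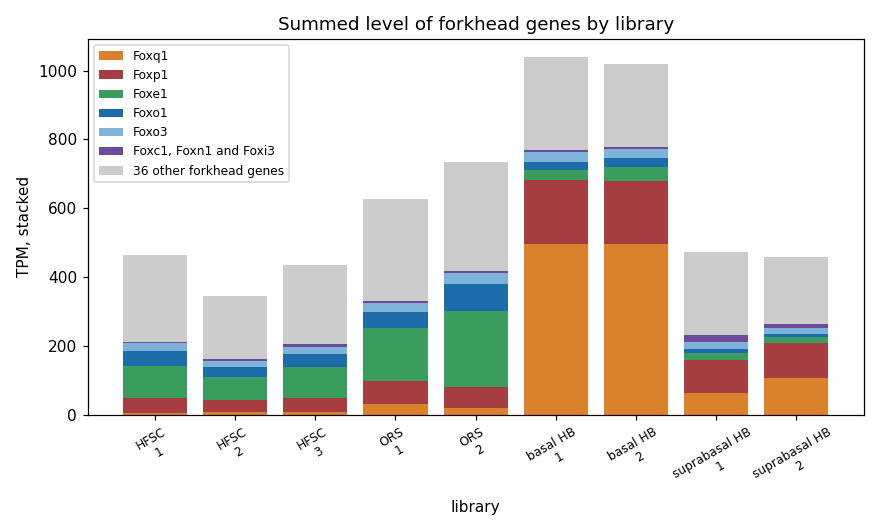
Stacked TPM (y axis) of the forkhead genes in each of the 9 libraries (x axis), coloured for the 8 genes and grey for the 36 others. The basal HB bars reach 1040 and 1018 TPM, of which Foxq1 takes 47.6% and 48.8%.

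Of the 36 other forkhead genes, 23 passed the filter on low counts; the 13 that did not reached at most 0.17 TPM in any library. The highest mean levels over the 9 libraries were those of Foxk2 (121 CPM), Foxm1 (84.5), Foxk1 (69.8), Foxj3 (55.5), Foxo4 (46.6) and Foxj2 (44.5). In basal HB against HFSC, 12 of the 23 were higher and 5 lower, beside 22.8% and 26.1% of all genes. Of the 12, Foxf2, Foxn4 and Foxf1 stood at 0.1454 CPM or less in every library outside basal HB. They passed the filter through their basal HB libraries, so the filter favoured their being higher there. The count of 12 is therefore a description and no test against the share of all genes. Without basal HB replicate 1 these counts fell to 7 and 3, the 12 became 6 with the stricter filter, which tests fewer genes, and the 5 became 3 on the log2 TPM scales. Foxo6, a FOXO gene like Foxo1 and Foxo3, dropped along the populations, from 36.3 ± 6.14 CPM in HFSC to 19.2 ± 4.74 in ORS, 6.45 ± 0.495 in basal HB and 1.61 ± 0.182 in suprabasal HB, and every step passed the test (adjusted p = 0.00522, 0.000841 and 0.000492). Foxj1, the regulator of motile cilia genes, was likewise lower in the bulb, at 8.82 ± 0.601 CPM in HFSC, 15.2 ± 6.29 in ORS, 1.99 ± 1.10 in basal HB and 0.524 ± 0.208 in suprabasal HB (suprabasal HB against ORS 29.2-fold lower, adjusted p = 0.000145). Foxm1, which drives mitotic genes, was 2.12-fold higher in ORS than in HFSC (127 ± 2.96 against 60.2 ± 3.31 CPM, adjusted p = 5.78e-05). In the same comparison Foxp4, a relative of Foxp1, was 2.01-fold lower (adjusted p = 0.000731) and Foxn2 1.99-fold higher (adjusted p = 0.000293).

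Some of these genes are known from cells other than keratinocytes. Foxd3, a factor of neural crest and its melanocyte lineage, was at 0 to 0.145 CPM for HFSC, 0.0559 and 0.546 for ORS, 3.26 and 3.97 for basal HB, and 14.6 and 26.3 for suprabasal HB. As with the summed melanocyte markers, suprabasal HB was highest and basal HB next, while HFSC and ORS overlapped (Foxd3 in ORS against HFSC adjusted p = 0.182). Foxs1 and Foxf2, known from pericytes, were highest in basal HB, at 5.69 and 6.60 CPM for Foxs1 against 0.246 and 0.302 in suprabasal HB (22.2-fold, adjusted p = 0.00166), and at 1.19 and 1.502 CPM for Foxf2 against 0.0189 and 0.0448 (adjusted p = 0.00185). Smooth muscle and pericyte markers summed to 1179 to 1337 CPM in basal HB and 48.5 to 71.0 in suprabasal HB, with all 4 of 4 lower in suprabasal HB. In HFSC, where Foxs1 stood at 0.177 to 0.763 CPM, 2 of the 4 markers (Myh11 and Rgs5) were lower than in basal HB and the other 2 higher. Foxn4 was detected at 0.262 and 0.297 CPM in basal HB and had no read in HFSC. Foxf2 and Foxn4 passed the filter on low counts through basal HB, so their being highest there is not independent of the filter. Whether the other cell types account for these levels was not tested.

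**Figure D4:**
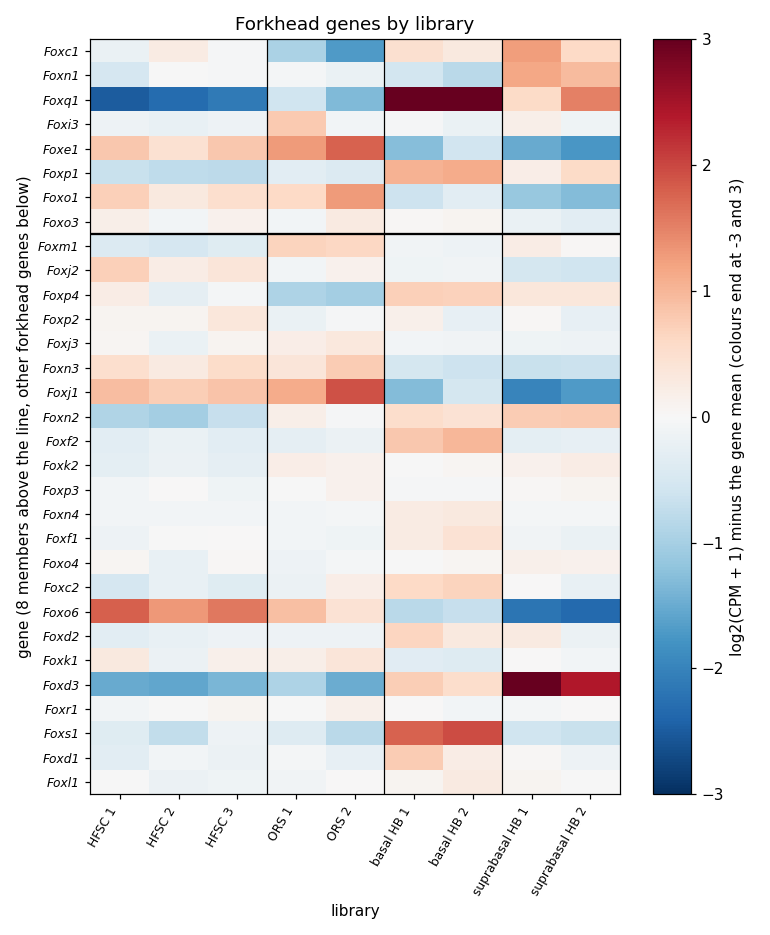
Level of the 8 forkhead genes (above the line) and of the 23 others that passed the filter (below it) in the 9 libraries, as log2(CPM + 1) minus the mean of the gene, with colours that end at -3 and 3. Foxq1 is deepest red in both basal HB libraries, Foxd3 in both suprabasal HB libraries, and Foxo6 runs from red in HFSC to blue in suprabasal HB.

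Genes of the pathways around these factors were counted from lists of known members, which were not picked for how they moved in this test; the lists were, however, written with earlier results of these data known. For comparison, 18.1% of all genes tested were higher and 23.8% lower in ORS than in HFSC, 22.8% and 26.1% for basal HB against HFSC, and 25.2% and 26.3% for suprabasal HB against HFSC; no difference of a list from these shares was tested. A list of 20 genes covered the pathway around the FOXO factors. It held insulin and IGF receptors, Irs1, PI3K, Pdpk1, AKT and SGK kinases, the phosphatases that oppose them, Rictor, Tsc1 and Tsc2. Of the 20, 3 were higher and 5 lower in ORS than in HFSC, and 6 and 5 in basal HB against HFSC. In suprabasal HB against HFSC 1 was higher and 6 were lower, Tsc2 among the latter. The list medians were -0.15, 0.04 and -0.06 in these comparisons. Sgk1, a kinase that phosphorylates FOXO3, fell most, from 388 CPM in HFSC to 197 in ORS, 76.0 in basal HB and 38.6 in suprabasal HB, with each step past the test (adjusted p = 0.00234, 0.000895 and 0.00564). Insr (log2 change -0.80) and Pik3r1 (-0.75) were lower in suprabasal HB than in HFSC. These counts were unsteady in both directions. Without ORS replicate 2 the 3 higher became 0, without basal HB replicate 1 the 6 became 3, and the 1 ranged from 0 to 3 without HFSC replicate 1 or 2 or basal HB replicate 1 or 2 and was 0 with the replicate block. On the log2 TPM scales the 5 lower in ORS and the 5 lower in basal HB each became 2, and the 3 higher in ORS became 5.

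Among 20 genes that FOXO factors are known to activate, 4 were higher and 11 lower in ORS than in HFSC (list median -0.49, all genes -0.05), 5 and 7 for basal HB (-0.09, all genes 0.00) and 6 and 9 for suprabasal HB (-0.33, all genes 0.02). Pik3ip1, an inhibitor of PI3K, fell by 1.52, 2.29 and 2.48 on the log2 scale in these comparisons. Cat, which encodes catalase, was at 172 CPM in HFSC, 84.4 in ORS, 38.9 in basal HB and 30.3 in suprabasal HB, and the last step was not called (adjusted p = 0.0854). Txnip, an inhibitor of thioredoxin, went from 273 CPM in HFSC to 103, 140 and 71.8. Trim63, a ubiquitin ligase best known from muscle, was 8.10-fold higher in suprabasal HB than in HFSC (9.61 against 1.19 CPM, adjusted p = 7.32e-05), and Klf2 4.24-fold higher in basal HB (adjusted p = 4.37e-05). The 4 higher in ORS became 2 without either ORS replicate. On the log2(TPM + 1) scale 7 were lower in ORS.

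Among 15 regulators known from the bulge alongside FOXC1 and FOXP1, 2 were higher and 6 lower in ORS than in HFSC, 3 and 8 for basal HB, 3 and 9 for suprabasal HB (medians -0.38, -0.34 and -1.79). Sox9, a factor that stem cells of the bulge require, was 68.8-fold lower in suprabasal HB than in HFSC (1.97 against 137 CPM, adjusted p = 6.39e-07) and Tcf7l1 23.6-fold lower (adjusted p = 4.83e-06). Fgf18, the growth factor that FOXP1 acts on, was 10.4-fold lower in ORS than in HFSC (0.106 against 1.10 CPM, adjusted p = 0.000224) and 16.9-fold higher in basal HB than in ORS (adjusted p = 0.000177). Nfatc1 was 2.42-fold lower in ORS than in HFSC (adjusted p = 0.0274), which was lost without ORS replicate 2 (adjusted p = 0.109), HFSC replicate 2 (0.0982) or HFSC replicate 3 (0.0841) and with the replicate block (0.0836). Bmp2 was 29.1-fold and the cell cycle inhibitor Cdkn1c 9.31-fold higher in basal HB than in HFSC (adjusted p = 8.76e-06 and 6.48e-06). The 6 lower in ORS became 3 without HFSC replicate 2 or 3 or with the replicate block and 2 on the log2 TPM scales. The 3 higher in basal HB became 5 without suprabasal HB replicate 2, with upper-quartile scaling or unfiltered, and 7 on the log2(TPM + 1) scale.

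Among 15 regulators of the hair lineage, the setting in which FOXN1, FOXQ1 and FOXI3 are known, 11 were higher than in HFSC in each of ORS, basal HB and suprabasal HB (medians 1.07, 1.79 and 1.43), with 1, 2 and 3 lower; the count of 11 stayed within 9 to 12 in the leave-one-out fits. Lef1, the WNT effector, rose from 25.8 CPM in HFSC to 76.3 in ORS (adjusted p = 0.000815) and 254 in basal HB (against ORS adjusted p = 0.00115); suprabasal HB, at 320, was not called against basal HB (adjusted p = 0.353). Prdm1 had its peak in basal HB, as Foxq1 did, at 249 CPM against 10.7 in HFSC (23.2-fold, adjusted p = 1.8e-05) and 81.1 in suprabasal HB (adjusted p = 0.0091, and 0.0542 without suprabasal HB replicate 1). Vdr, the vitamin D receptor, was 24.4-fold lower in suprabasal HB than in HFSC (adjusted p = 3.78e-06). The 1 lower in ORS ranged from 0 to 2 without HFSC replicate 1 or 3, ORS replicate 1 or suprabasal HB replicate 1, and also moved in DESeq2 and on the log2 TPM scales.

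Hair keratins and other follicle differentiation genes, 14 of 15 found in the files, moved between the bulb layers: 11 were higher and 2 lower in suprabasal HB than in basal HB (median 2.58, all genes 0.00), beside 13.1% and 14.8% of all genes. Krt35, a hair shaft keratin, was at 1506 CPM in suprabasal HB, 104 in basal HB, 31.3 in ORS and 39.0 in HFSC (suprabasal HB against basal HB adjusted p = 0.00159), and Krt36 was higher by 3.06 and Krt31 by 3.001 on the log2 scale. The 2 lower genes, named after their values were seen, were Padi3 and Tchh, a structural protein of the inner root sheath and the medulla that stood at 625 against 4005 CPM (6.41-fold, adjusted p = 0.000296). Tchh was the exception among 8 inner root sheath markers. The other 7 were higher in suprabasal HB than in basal HB, with Krt71 at 692 against 106 CPM and Krt25 at 670 against 175. Of the 7, Gata3 (77.3 against 38.4 CPM) was not called by limma on the log2(TPM + 1) scale (adjusted p = 0.229). Its call was also lost on the log2(TPM + 0.1) scale. Without basal HB replicate 1 or 2 or suprabasal HB replicate 1 it was lost too, at log2 changes of 1.004, 1.011 and 0.51. Against HFSC, basal HB had 11 higher and 1 lower and suprabasal HB 12 and 1. Hair keratin genes are close copies of one another, so the split of reads among them is uncertain.

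Of 9 hedgehog pathway genes, the setting in which FOXE1 is known, 4 were higher in ORS than in HFSC, 4 higher and 3 lower in basal HB and 4 higher and 4 lower in suprabasal HB (medians 0.32, 0.33 and 0.12). Gli1, a target and effector of the pathway, was 2.61-fold lower in basal HB than in ORS (96.6 against 252 CPM, adjusted p = 0.000303), and Ptch1, its receptor and target, 2.40-fold lower (216 against 518 CPM, adjusted p = 0.000849). Shh, the ligand, was 5.25-fold higher in basal HB than in HFSC (adjusted p = 0.00157), and the antagonist Hhip 12.8-fold higher (adjusted p = 0.00125). The 4 higher in ORS ranged from 2 to 6 when 1 library was left out, moving by over 1.5 times without ORS replicate 1 or basal HB replicate 1 or 2, and was 7 on the log2 TPM scales. The 3 lower in basal HB became 1 on those scales.

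**Figure D5:**
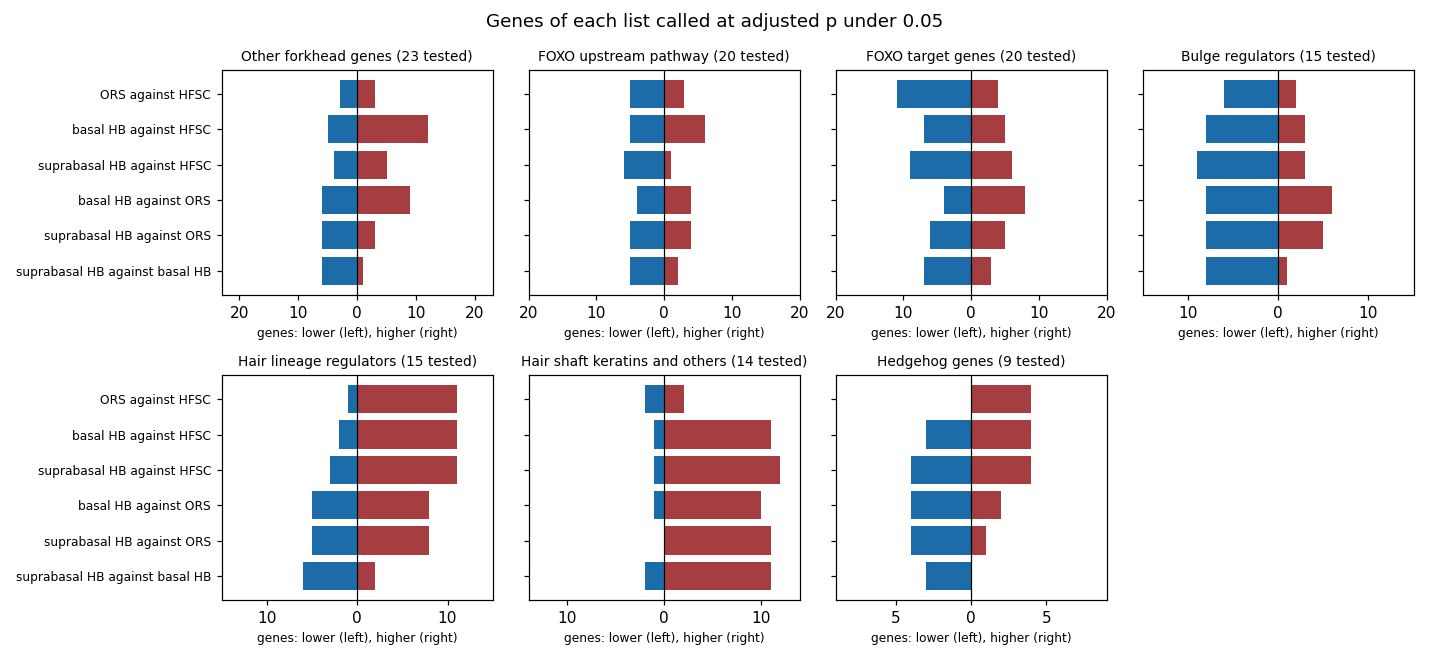
Number of genes (x axis, lower to the left in blue, higher to the right in red) called at an adjusted p under 0.05 in each list and comparison (rows, first named against second). Hair lineage regulators are 11 higher in each comparison with HFSC, and hair shaft keratins and others are 11 higher in suprabasal HB against basal HB.

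The genes whose levels ran most like each factor over the 9 libraries were found by Pearson correlation of log2 CPM among 11762 genes with a mean of at least 5 CPM. With libraries in 4 populations such an r mostly reflects the population means and is a description only. Foxq1 was most like Eml4 (r = 0.997), Kdm7a (0.996) and Ass1 (0.993), and Foxp1 most like Chd7 (0.994), Kdm7a (0.993) and Frrs1 (0.992), so Kdm7a, a histone demethylase, stood in both sets. Ass1, an enzyme of arginine synthesis, had mean levels of 20.1 CPM in HFSC, 34.0 in ORS, 392 in basal HB and 134 in suprabasal HB. Foxe1 was most like Fmo2 (0.995), Pknox1 (0.993) and P2rx7 (0.989), and Foxo1 most like Map3k15 (0.993), Acox3 (0.993) and Elf1 (0.989). Foxn1 was most like Prdx4 (0.967), Tmx2 (0.966) and Slc31a1 (0.966), Foxc1 most like Tiparp (0.982), Ppap2a (0.976) and Ncald (0.968), and Foxo3 most like Slc23a2 (0.972), Rftn1 (0.959) and Phrf1 (0.956). For Foxi3, whose counts are near 0, the closest were 2610020H08Rik (0.927), Ybx2 (0.908) and 1700034H15Rik (0.907).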

How the data were processed

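The authors' per-sample tables, made with Bowtie2 2.2.9 and RSEM 1.2.30 against mm10 per the submitters' processing notes, hold RSEM expected counts per gene and TPM, both as deposited. Their parameters and counting strand are not given in the sources used here. Expected counts were rounded and fitted with edgeR 4.0.16 (R 4.3.3) in 1 quasi-likelihood fit of 4 population means over 9 libraries, after filterByExpr (20491 of 46517 genes) and TMM scaling, with 5 residual degrees of freedom. Each of 6 comparisons was a 2-sided F-test with Benjamini-Hochberg adjustment over all genes tested and a threshold of 0.05; SE is the log2 change over the square root of F. A floor of 3 counts is worth 0.0339 to 0.1195 CPM, and intervals of counts cover counting error only, since reads carry no molecular identifiers. Positions are from GENCODE M21. Some sequences and 1 gene's level are not reported here. All 8 genes are named in every comparison. Of each list the up to 4 called genes with the largest changes were eligible, and of the other forkhead genes the 6 most abundant and up to 3 per comparison. The members and lists were chosen with earlier results of these data known. Alternatives were other scalings, DESeq2 1.42.0, limma 3.58.1 on log2(TPM + 1) and log2(TPM + 0.1), other filters, 2-population fits, the replicate number as a block and each library left out. A TPM table of the whole series, with 9 columns, was not used. The procedure was tested on simulated data.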

Additional observations from a re-analysis of the deposited data

How the results depend on the processing

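Of 48 combinations of gene and comparison, 32 were called, and 24 of these kept direction and call in all 18 alternatives; over all alternatives 762 values kept both, 50 lost a call, 20 gained one and 26 changed sign. Changes of sign concerned values near 0 or Foxi3. Foxo3 in basal HB against HFSC was -0.03, and became 0.021 with RLE scaling and in DESeq2, 0.104 with upper-quartile scaling, 0.074 unfiltered, 0.007 with the stricter filter, 0.004 in the 2-population fit, 0.341 and 0.354 on log2(TPM + 1) and log2(TPM + 0.1), and 0.15, 0.033, 0.13 and 0.104 without HFSC replicate 1, 2 or 3 or suprabasal HB replicate 2 (leave-one-out lowest -0.059). Foxo3 in basal HB against ORS was -0.04, and became 0.019 with upper-quartile scaling, 0.016 and 0.017 on the TPM scales, 0.147 without ORS replicate 2 and 0.003 without any HFSC replicate or suprabasal HB replicate 2 (leave-one-out lowest -0.213). In ORS against HFSC, leaving out HFSC replicate 1 or ORS replicate 1 took Foxn1 to -0.025 or -0.035 (highest 0.233), and Foxo3 became -0.178 without ORS replicate 2 (highest 0.182). Foxi3 became -0.694 in basal HB against HFSC without basal HB replicate 1 (highest 2.248), 0.961 in suprabasal HB against ORS without ORS replicate 1 (lowest -2.972), and -0.122 in suprabasal HB against basal HB without suprabasal HB replicate 1 (highest 3.528). Genes called over the whole table, 8576, 10026, 10562, 6245, 6021 and 5721 in the 6 comparisons (order as in the report), ranged with 1 library left out from 6586 to 8648, 6507 to 10193, 8767 to 10649, 3484 to 6231, 3884 to 6296 and 2761 to 5919. The low ends came without basal HB replicate 1 for basal HB against HFSC, basal HB against ORS and suprabasal HB against basal HB, and without ORS replicate 2 for suprabasal HB against ORS. The last of these comparisons also gave 3992 in the 2-population fit. The labels do not say what a replicate number shares, and deviations of same-numbered libraries correlated at -0.105 to 0.121 over 12 pairs; with the replicate block the counts were 7386, 8964, 9518, 5875, 5512 and 5214. On log2(TPM + 1) the median of all genes moved from -0.05 to 0.13, 0.00 to 0.21, -0.01 to -0.13 and 0.00 to -0.16 in ORS and basal HB against HFSC and suprabasal HB against ORS and basal HB, and the share of calls that were higher from 43.2% to 68.5%, 46.7% to 72.5%, 48.6% to 31.3% and 46.8% to 20.5%; upper-quartile scaling gave 57.2% in basal HB against HFSC. The cause of these moves was not tested. Depth limits Foxi3, at 0 to 1 count per HFSC library.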

Other observations

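Several forkhead genes known from other organs were at or near 0. Among them, Foxa1, Foxa2, Foxi1, Foxi2 and Foxb2 had 0 counts in all 9 libraries, where a floor of 3 counts is worth at most 0.1195 CPM. Foxh1 was the highest of the genes that did not pass the filter, at 0.17 TPM in its highest library. Foxp3, the factor of regulatory T cells, passed the filter with a mean of 0.128 CPM over the 9 libraries. The 6 immune markers summed to 35.0 to 86.6 CPM. Cd3e, the T-cell marker among them, averaged 0.0995 CPM in HFSC and had no read in suprabasal HB. Foxp3 averaged 0.0806 CPM in HFSC and 0.176 in suprabasal HB, a difference that was not called (edgeR adjusted p = 0.188). Both genes were near the floor, where such values cannot show whether they ran together. The source of the Foxp3 reads was not tested.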
